A study of Homo sapiens with 60 samples.

Results

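The comparison set out here is that of PC9 cells 7 days after osimertinib was taken away with PC9 cells that had not received the drug, and it asks which genes had not returned to the untreated level. Its members are 6 of the 60 RNA-seq libraries, chosen by their labels: 3 of the long washout arm and 3 of the DMSO arm. PC9 is a lung adenocarcinoma line that depends on a mutant EGFR, and osimertinib is an EGFR inhibitor. The long washout cells had received 500 nM osimertinib for 21 days, which leaves the drug-tolerant persister cells (DTPs), were washed, and then grew without drug for 7 days, the time at which the submitters give exponential growth as resumed. The DMSO cells were parental PC9 grown without drug for 21 days and then given the solvent for 24 h, so the 7 further days in culture and the drug history cannot be told apart. The other PC9 arms were osimertinib for 24 h (acute), DTPs harvested under drug, and DTPs after 24 h without drug (short washout), each with 3 libraries. The replicates are biological triplicates of 1 cell line.

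EGFR signals through the RAS, RAF, MEK and ERK kinases, and ERK switches on a set of target genes that includes its own inhibitors, the dual-specificity phosphatases and the Sprouty proteins. Drug-tolerant persisters are cells that survive a targeted drug without a resistance mutation, divide little under drug, and can return to growth when it is taken away. Interferon-stimulated genes, complement components and antigen presentation genes are induced in many epithelial cells under stress or cytokine exposure.

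The 3 long washout libraries differed from each other at least as much as the farthest replicates of any other PC9 arm. The squared differences between the counts of a pair, over those of counting error alone and averaged over genes, came to 29.5 for replicates 1 and 2, 69.6 for replicates 1 and 3 and 125 for replicates 2 and 3, where the 3 DMSO pairs gave 15.5 to 23.4 and the 3 short washout pairs 14.6 to 17.7. The library labelled long washout replicate 3 lay nearest to short washout replicate 3, at 21.0, a value within the range of DMSO replicates. Of 4303 genes that differed at least 2-fold between DTPs and DMSO, 88.8% lay nearer to the DTP mean in that library, against 84.6% to 89.2% in the 3 short washout libraries, 48.9% in long washout replicate 1 and 24.3% in replicate 2. Replicate 3 thus stood apart from the other long washout libraries and lay nearer to the short washout arm than to its own. The results below use all 6 libraries, as the labels give them, and the main counts against DMSO are set beside the same fit without replicate 3. Depth did not differ with the arm, with totals of 36.9 M to 47.1 M estimated counts in the DMSO libraries and 36.1 M to 41.0 M in the long washout libraries.

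After 7 days without drug, 4278 of 13980 genes tested (30.6%) differed from DMSO by edgeR's quasi-likelihood test at an adjusted p under 0.05, of which 2219 were higher (15.9% of those tested) and 2059 lower (14.7%). A change of at least 2-fold was far more often a rise: 1106 of these genes were higher and 382 lower. For 4834 genes that did not pass (34.6%), the 95% interval of the change lay inside 1.5-fold in either direction, and these are counted here as at the untreated level within that margin. The interval also lay inside 1.5-fold for 251 of the 4278 called genes, which are counted here as differing though their change was within that margin. For another 4868 (34.8%) the interval reached beyond 1.5-fold and the test did not decide. Without replicate 3, 4138 of 14103 genes differed, 1874 of the higher and 1915 of the lower genes among them were the same as with all 6 libraries, and 818 were at least 2-fold higher and 328 at least 2-fold lower. Fewer genes passed with 1 of some other libraries left out: 1935, 2338 and 1364 without DMSO replicate 1, 2 or 3, and 2348 without long washout replicate 1. In turn, 1050, 1277, 770 and 1327 genes were higher and 885, 1061, 594 and 1021 lower, of 14267, 14246, 14242 and 14132 tested. Without long washout replicate 2, 2722 of 14226 were higher and 2594 lower, and without replicate 3, 2020 were higher and 2118 lower. The shares of 15.9% and 14.7% hold for all 6 libraries. List counts below from fits with a library left out are to be read against the calls of that fit. The balance of directions depends on the scaling: TMM normalization put 51.9% of the calls above DMSO, while library size alone put 67.4% there, with a median over all genes of 0.12 on the log2 scale against 0.01 with TMM, and limma on the deposited log2 TPM values gave 69.1%.

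The 12 genes with the highest log2 fold changes, among called genes whose average over the 6 libraries reached 5 CPM (read counts scaled to a library of 1 M reads), were NPY4R2, IGFL1, CAPN6, PSG1, LBH, OAS2, PSG5, IFI44, IFI6, SERPING1, KRT4 and MYL9. All 12 were close to silent in DMSO, where the mean of each lay under 1 CPM. NPY4R2, a receptor of the pancreatic polypeptide family, held 2, 0 and 0 reads in the DMSO libraries and 195, 202 and 787 in the long washout libraries, a ratio of 637 with an exact 95% counting interval of 176 to 5265. That interval covers counting error only, and reads of NPY4R2 and of its near-identical copy NPY4R may have been split between them. CAPN6, a calpain without protease activity, stood at 0.029, 0.11 and 0.082 CPM in DMSO and at 12.1, 3.77 and 25.1 CPM after the washout. LBH, a transcriptional regulator of development, stood at 0.17, 0.90 and 0.055 CPM in DMSO and at 20.1, 7.65 and 82.5 CPM after the washout, a log2 fold change of 6.51 ± 1.12 (SE, adjusted p = 0.00667, edgeR). In these 3 genes the groups did not overlap, replicate 2 was the lowest of the washout libraries and the library labelled replicate 3 the highest. Genes named because they were called, here and below, were likely to have groups that do not overlap, so that trait describes them and adds no support. All 12 genes passed the test without replicate 3 as well. In that fit the 11 other than NPY4R2 had log2 fold changes of between 3.85 for OAS2 and 6.65 for CAPN6. OAS2 did not pass when any 1 DMSO library was left out. In bulk RNA, a gene that is high in few cells and one that is moderately high in all cells cannot be told apart, nor can fewer cells of a kind and less RNA per cell.

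PSG1 and PSG5 belong to the pregnancy-specific glycoproteins, secreted relatives of the CEACAM adhesion proteins that are known from the placenta. PSG1 stood at 0.14, 0.37 and 0.30 CPM in DMSO and at 19.0, 9.85 and 52.1 CPM after the washout. PSG5 stood at 0.29, 0.66 and 0.14 CPM in DMSO and at 22.1, 14.1 and 54.0 CPM after it. Their neighbours moved with them: along chromosome 19, from 42721638 to 43363172 in GRCh38 (GENCODE 29), 10 tested genes in a row were called higher, and 9 of these are PSG genes (PSG3, PSG8, PSG1, PSG6, PSG11, PSG2, PSG5, PSG4 and PSG9), with CD177 at the end. The median log2 fold change of the 10 was 5.23, and it was 0.85 for CD177. The PSG genes are alike in sequence, so the share of reads given to each is uncertain. In the other arms PSG1 averaged 6.56 CPM after 24 h of drug, 49.1 CPM in DTPs and 27.9 CPM after the short washout.

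**Figure D1:**
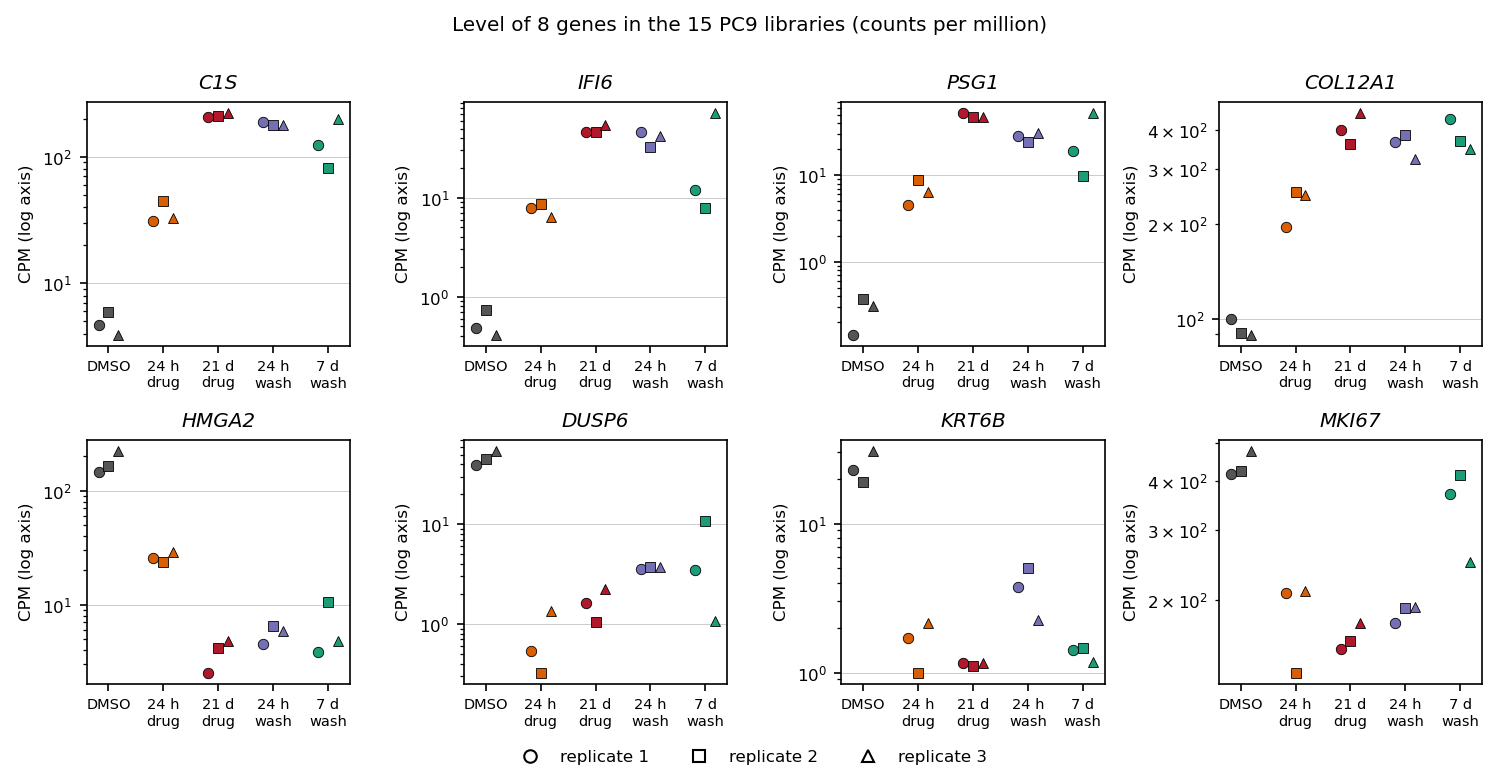
CPM (TMM-normalized, log axis) of 8 genes in each of the 15 PC9 libraries by arm, 1 point per library with the replicate number as the symbol. C1S, IFI6, PSG1 and COL12A1 lie above the DMSO libraries in all 3 libraries after 7 days of washout, HMGA2, DUSP6 and KRT6B lie below them, and MKI67 stands at 371, 414 and 250 CPM after the washout against 416 to 477 CPM in DMSO.

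Among the lists with at least 12 tested members, interferon-stimulated genes had the largest share of higher genes. Of 42 members tested, 33 were higher than DMSO, against 15.9% of all genes tested, none was lower, and the median log2 fold change was 1.82, where that of all genes tested was 0.01. Without replicate 3, 30 were higher and the median was 1.07, and without DMSO replicate 1, 2 or 3 the number was 12, 16 and 10. Over all genes tested, 1050, 1277 and 770 were higher without DMSO replicate 1, 2 or 3, against 2219 with all 6 libraries. Summed over the 42 genes as the mean of log2(CPM + 1), the list stood at 1.98, 2.09 and 2.02 in the DMSO libraries and at 3.16, 2.74 and 4.36 in long washout replicates 1, 2 and 3. All 3 lay above DMSO, and replicate 3 lay above the 3 DTP libraries (4.01 to 4.19). The short washout arm was also high in this list: its median log2 fold change against DMSO was 2.72, where that of DTPs was 2.57.

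Members of each role in the pathway were among the higher genes. Among its transcription factors, STAT2 (log2 fold change 1.66), IRF9 (1.86), IRF1 (1.22) and IRF7 (1.64) rose. Of the RNA sensors, DDX58, which encodes RIG-I, and DHX58 rose by 1.30 and 1.72 on the log2 scale, while IFIH1, which encodes MDA5, was at 0.10 and did not pass. Among the antiviral effectors, IFI6 stood at 0.49, 0.72 and 0.41 CPM in DMSO and at 12.04, 7.90 and 72.3 CPM after the washout (log2 fold change 5.82 ± 0.97, adjusted p = 0.00584, edgeR). IFITM3, which hinders virus entry, stood at 11.1, 13.8 and 14.5 CPM in DMSO and at 74.6, 50.03 and 141 CPM after it. GBP1, a guanylate-binding GTPase, stood at 2.37, 1.52 and 1.13 CPM and then at 28.1, 11.1 and 27.3 CPM. In all 3 genes the groups did not overlap, and only in GBP1 did the washout replicate 1 reach the level of the library labelled replicate 3. Other members, named after their values were seen, were at or near 0 in DMSO: XAF1, a pro-apoptotic gene, stood at 0.029, 0 and 0.055 CPM in DMSO and at 2.63, 0.56 and 12.04 CPM after the washout, and BST2, which tethers budding virus, rose by 5.08 on the log2 scale and by 3.80 without replicate 3. ISG15, a ubiquitin-like modifier and a standard marker of the response, was at 0.49 and did not pass, nor did USP18 (0.06), whose interval lay inside 1.5-fold.

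The bases before the starts of the 3 effector genes are shown because the response is known to run through a promoter element that the ISGF3 and IRF factors bind. The sequences are those of RefSeq on GRCh38.p14, 250 bases before the start of transcription, given 5′ to 3′ on the strand of the gene, and the capitals mark the core GAAANNGAAA or its reverse complement TTTCNNTTTC, whose matches may overlap.
IFI6, chr1:27672193-27672442, minus strand: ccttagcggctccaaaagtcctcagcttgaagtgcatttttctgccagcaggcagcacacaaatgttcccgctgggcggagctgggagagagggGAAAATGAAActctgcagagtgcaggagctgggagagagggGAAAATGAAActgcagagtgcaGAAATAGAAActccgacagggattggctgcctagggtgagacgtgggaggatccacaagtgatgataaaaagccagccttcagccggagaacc
IFITM3, chr11:320861-321110, minus strand: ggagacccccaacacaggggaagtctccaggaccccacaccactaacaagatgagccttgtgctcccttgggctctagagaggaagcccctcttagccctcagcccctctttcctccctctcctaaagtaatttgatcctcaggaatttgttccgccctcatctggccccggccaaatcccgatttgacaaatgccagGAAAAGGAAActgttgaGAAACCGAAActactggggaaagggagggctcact
GBP1, chr1:89065209-89065458, minus strand: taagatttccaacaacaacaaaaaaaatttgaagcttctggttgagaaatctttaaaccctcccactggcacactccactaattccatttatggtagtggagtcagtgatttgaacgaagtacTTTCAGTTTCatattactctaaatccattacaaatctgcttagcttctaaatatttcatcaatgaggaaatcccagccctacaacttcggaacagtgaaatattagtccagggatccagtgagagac

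IFI6 held 3 matches, which began 156, 115 and 93 bases before the start, IFITM3 held 2, at 52 and 35 bases, and GBP1 held 1, at 127 bases. Of the 42 genes of the list, 31 had a promoter in the table used, and 20 of these (64.5%) held a match on either strand, as did 17 of the 25 that were higher in PC9. Over all 11008 tested genes with a promoter in the table the share was 3.29%. The list was made of genes known to answer interferon, so this share describes the list and not the washout, and a match of letters is not a binding site.

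Complement genes were next. Of 15 tested members 11 were higher and 1 lower, against 15.9% and 14.7% of all genes, with a median log2 fold change of 1.64. Without replicate 3, 9 were higher and 1 lower, and 6 and 7 were higher without DMSO replicate 1 or 3. C1S, a protease of the first complement component, stood at 4.72, 5.95 and 3.93 CPM in DMSO and at 125, 81.5 and 199 CPM after the washout (log2 fold change 4.80 ± 0.36, adjusted p = 0.000863, edgeR). SERPING1, which encodes the inhibitor of C1S, rose from 0.11, 0.33 and 0.17 CPM to 9.39, 2.90 and 18.1 CPM. Clusterin (CLU) rose from 56.3, 41.2 and 36.5 CPM to 177, 154 and 289 CPM. The washout libraries of all 3 genes lay above every DMSO library, and the order of replicates was again 3, 1, 2. C3, the central component, was lower by 0.53 on the log2 scale, and the membrane regulators CD46 (0.04) and CD59 (0.07) had intervals inside 1.5-fold, whereas CD55 was higher by 2.14. C1S lies beside C1R, C1RL, RBP5 and CLSTN3 on chromosome 12 (6988259 to 7158945), and these 5 neighbours were all called higher. C1S overlaps other genes in the annotation, and whether the counting used strand is not given in the sources used here.

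Genes of antigen presentation by MHC class I also stayed high. Of 17 tested members 12 were higher, with and without replicate 3, against 15.9% of all genes, none was lower, and the median log2 fold change was 0.94. Without DMSO replicate 1, 2 or 3, 7, 8 and 8 were higher, where 1050, 1277 and 770 of all genes tested were. The heavy chain genes HLA-B, HLA-C, HLA-E and HLA-F, whose products hold the peptide, were among them. HLA-B stood at 11.9, 13.4 and 20.1 CPM in DMSO and at 80.7, 60.7 and 160 CPM after the washout (2.75 ± 0.38, adjusted p = 0.00348, edgeR). HLA-C, HLA-E and HLA-F were at 0.94, 1.06 and 2.05 on the log2 scale. These genes are alike in sequence and vary between people, so the share of reads given to each is uncertain. Other higher members were the light chain B2M (log2 fold change 1.20), the peptide transporter TAP1 (1.43) and its partner tapasin, TAPBP (1.20), the immunoproteasome subunits PSMB8 (0.79) and PSMB9 (2.05), and the trimming peptidases ERAP1 (0.61) and ERAP2 (0.59). PSMB9 stood at 4.49, 3.76 and 4.15 CPM in DMSO and at 14.5, 11.9 and 24.4 CPM after the washout. In HLA-B and PSMB9 the groups did not overlap, and the library labelled replicate 3 was the highest. The regulator NLRC5 did not pass (-0.02). Of 4 tested genes of MHC class II, CD74 and HLA-DMA were higher.

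**Figure D2:**
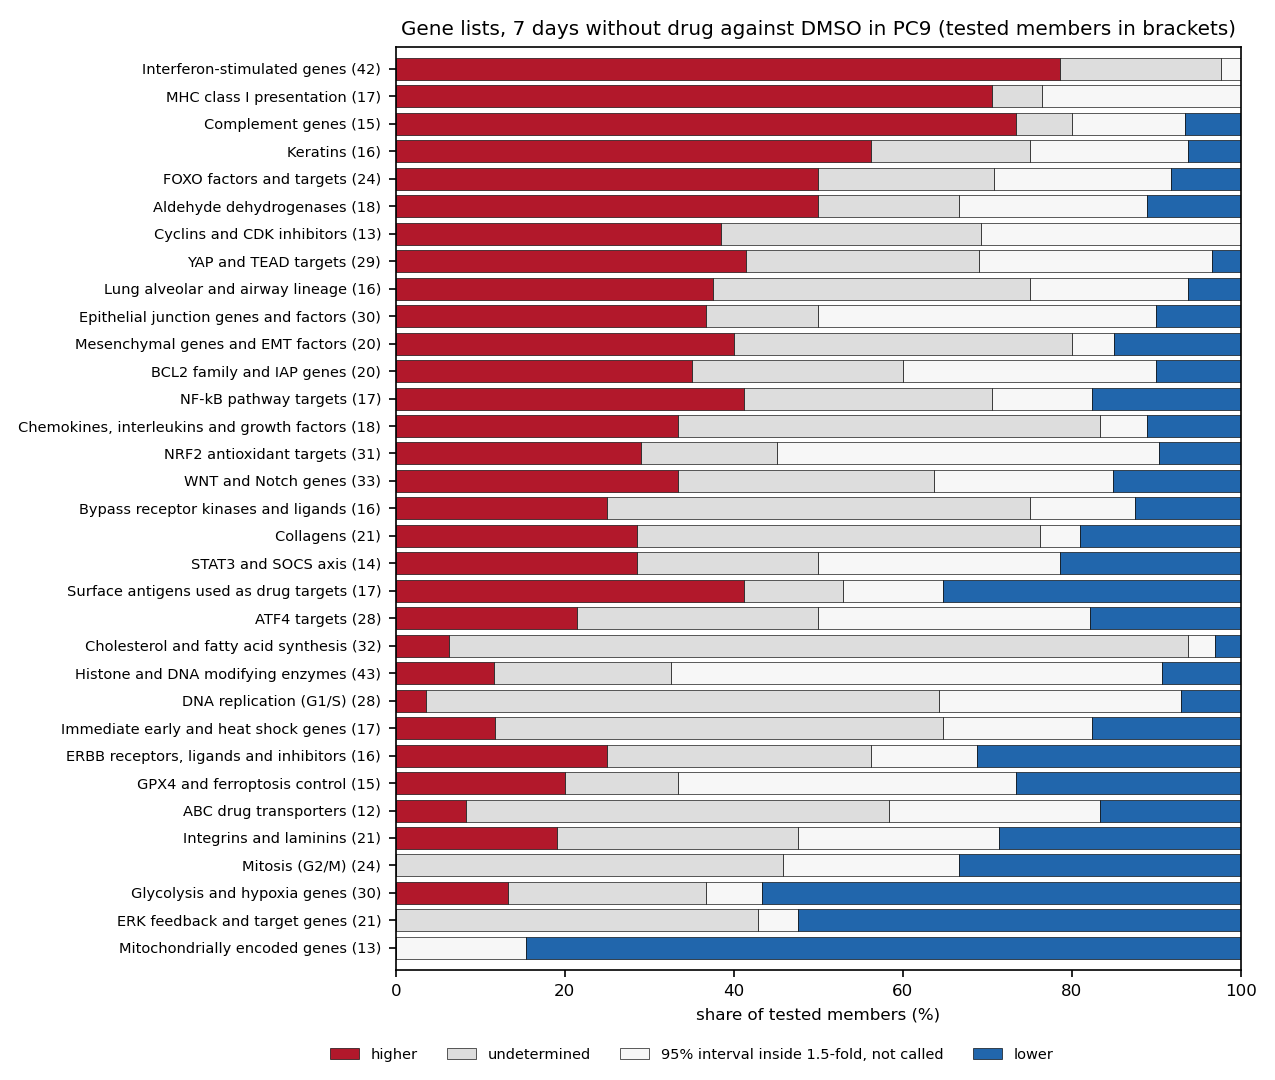
For each gene list with at least 12 tested members, the share of members (in %) that were higher, lower, within 1.5-fold by their 95% interval, or undetermined after 7 days without drug against DMSO in PC9. Interferon-stimulated and complement genes have the largest shares of higher genes (33 of 42 and 11 of 15), and mitochondrially encoded genes, glycolysis and hypoxia genes, and ERK targets the largest shares of lower genes (11 of 13, 17 of 30 and 11 of 21).

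The 12 genes with the lowest log2 fold changes under the same rule were IL1RL1, HMGA2, NTSR1, KRT6B, COL13A1, IGFN1, CEACAM6, DUSP6, CYP24A1, TOX2, SOX7 and NWD1. IL1RL1, the receptor of interleukin-33, stood at 12.3, 20.3 and 33.3 CPM in DMSO and at 0.56, 0.65 and 0.74 CPM after the washout (log2 fold change -5.05 ± 0.41, adjusted p = 0.000988, edgeR). HMGA2, a chromatin protein of fetal tissues and tumours, stood at 147, 164 and 223 CPM and then at 3.89, 10.7 and 4.78 CPM (-4.77 ± 0.39, adjusted p = 0.000988). KRT6B, a keratin of hyperproliferative epithelium, stood at 23.01, 18.9 and 30.8 CPM and then at 1.42, 1.47 and 1.18 CPM (-4.14 ± 0.23, adjusted p = 0.000411). In IL1RL1 and KRT6B the 3 washout libraries lay close together, replicate 2 included, and HMGA2 stood at 3.85 CPM in DTPs and 5.66 CPM after the short washout, and long washout replicate 1 lay at the DTP mean. NTSR1, the neurotensin receptor, stood at 25.3, 22.9 and 31.7 CPM in DMSO and at 0.67, 2.63 and 0.51 CPM after the washout. CYP24A1, which breaks down vitamin D, stood at 19.9, 21.1 and 21.9 CPM and then at 2.74, 3.67 and 0.72 CPM. CEACAM6, an adhesion protein, stood at 125, 365 and 358 CPM and then at 27.2, 39.8 and 24.3 CPM, with DMSO replicate 1 well under the other DMSO libraries. COL13A1 did not pass without DMSO replicate 3 or long washout replicate 1, nor DUSP6 without DMSO replicate 3 (adjusted p = 0.0517, edgeR). All 12 genes passed without replicate 3, at log2 fold changes of between -5.16 for IL1RL1 and -2.48 for NWD1.

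ERK targets stayed low. Of 21 tested members of the list 11 were lower and none higher, against 14.7% of all genes lower, with a median log2 fold change of -1.06. Without replicate 3, 16 were lower and the median was -0.73, and 7 and 5 were lower without DMSO replicate 1 or 3. Over all genes tested, 885 and 594 were lower without DMSO replicate 1 or 3, against 2059 with all 6 libraries. DUSP6, the phosphatase that switches ERK off, stood at 39.2, 44.8 and 54.7 CPM in DMSO, at 3.46, 10.7 and 1.08 CPM after 7 days of washout, and at 3.69 CPM on average after 24 h of washout. The long washout libraries did not overlap with DMSO (log2 fold change -3.17 ± 0.65, adjusted p = 0.0113, edgeR), with replicate 2 nearest to it and the library labelled replicate 3 farthest. DUSP5 stood at 56.7, 55.9 and 69.8 CPM in DMSO and at 25.0, 29.5 and 15.8 CPM after the washout. IER3, an early response gene, stood at 105, 85.6 and 95.3 CPM and then at 41.2, 56.2 and 36.1 CPM. The Sprouty genes split: SPRY4 (-2.41) and SPRY1 (-0.77) were lower, and SPRY2 was not called (-0.01). Of the ETS factors under ERK control, ETV1 (-1.14), ETV4 (-1.14) and ETV5 (-0.999) did not pass with all 6 libraries and passed without replicate 3, at smaller changes of -0.76, -0.72 and -0.56. CCND1, cyclin D1, was inside 1.5-fold (0.05).

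The receptor itself was slightly lower. EGFR stood at 1735, 1670.5 and 1902 CPM in DMSO and at 1234.5, 1451 and 1317 CPM after the washout, so the groups did not overlap, and its log2 fold change was -0.39 ± 0.09 (adjusted p = 0.0192, edgeR). That call was lost without DMSO replicate 1 or 3 or long washout replicate 1, with adjusted p-values up to 0.0887 by the same test, with the replicate block and with limma. Of 16 tested receptors, ligands and inhibitors of the ERBB family 4 were higher and 5 lower, where 15.9% and 14.7% of all genes were, 4 and 4 without long washout replicate 3, and 1 and 1 without DMSO replicate 3. The receptors ERBB2 (0.69) and ERBB3 (0.61) were higher. Among the ligands, HBEGF, heparin-binding EGF, stood at 56.5, 44.6 and 69.8 CPM in DMSO and at 9.74, 11.8 and 9.88 CPM after the washout (-2.43 ± 0.18, adjusted p = 0.000863), alike in the 3 washout replicates. Betacellulin, BTC, went the other way, from 4.80, 4.33 and 4.48 CPM to 12.1, 10.0 and 23.9 CPM. Of the inhibitors, ERRFI1, which binds the EGFR kinase, was lower (-0.96), as was LRIG3 (-0.61), and LRIG1 was higher (1.01).

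**Figure D3:**
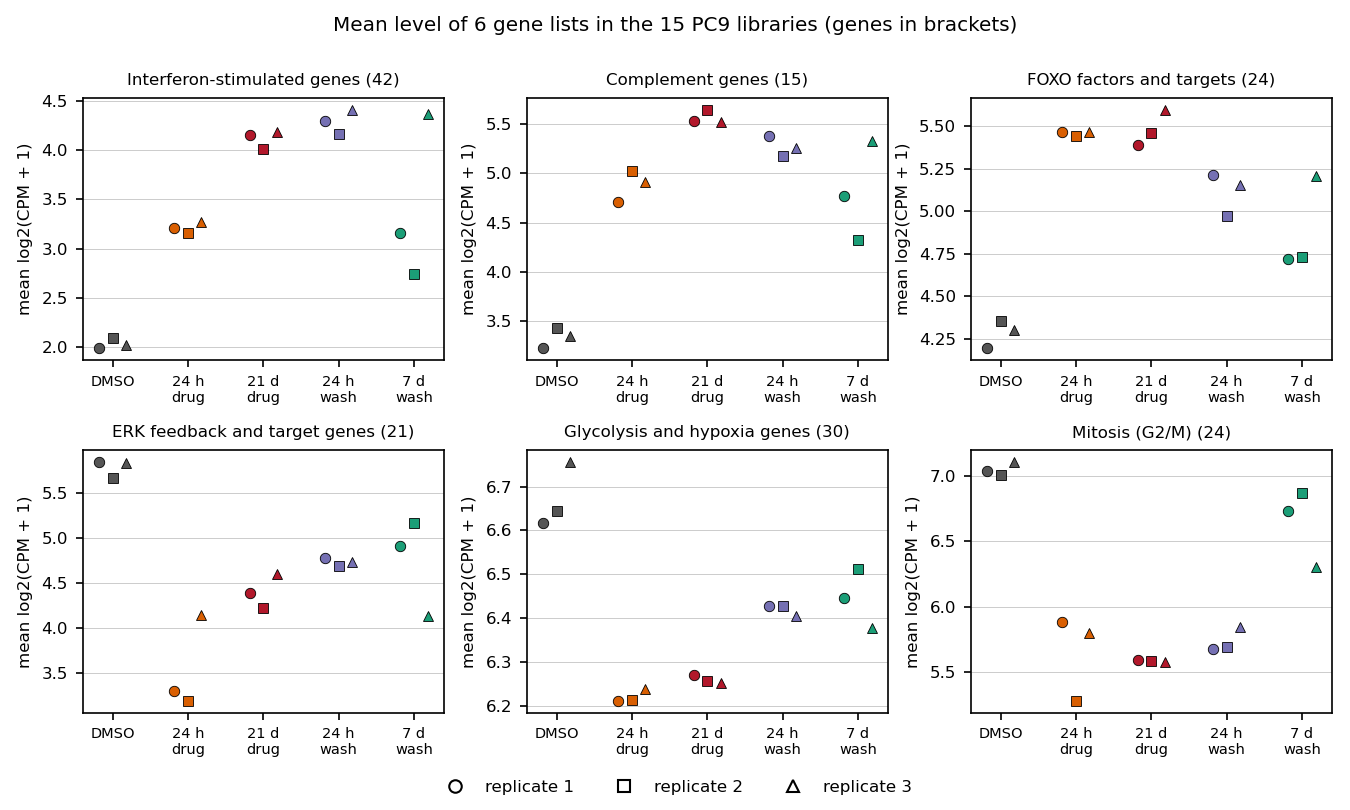
Mean of log2(CPM + 1) over the tested genes of 6 lists in each of the 15 PC9 libraries by arm, 1 point per library with the replicate number as the symbol. In each panel long washout replicate 3 (triangle) is the long washout library farthest from DMSO, and in the interferon panel it stands at 4.36 against 2.74 in replicate 2.

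Mitosis genes as a list lay between DTPs and DMSO, and to a different degree in each replicate: long washout replicates 1 and 2 lay nearer to DMSO, and the library labelled replicate 3 slightly nearer to DTPs. The proliferation marker MKI67 stood at 416, 425 and 477 CPM in DMSO and at 371, 414 and 250 CPM after 7 days of washout, against 161 CPM in DTPs, and did not pass (log2 fold change -0.33, 95% interval -0.73 to 0.07, adjusted p = 0.172, edgeR). Of 24 mitosis genes 8 were lower and none higher, against 14.7% of all genes lower, with a median of -0.44, and the mean level of the list was 7.04, 7.01 and 7.10 in the DMSO libraries, 6.73, 6.87 and 6.30 after the washout and 5.58 to 5.60 in DTPs. With library size as the only scaling 3 of the 24 were lower, without replicate 2, the long washout library nearest to DMSO, 15 were, and 1 or 2 were when long washout replicate 1 or any DMSO library was left out. Against DTPs, all 24 were higher after the washout, where 11.8% of all genes were. CENPE, the kinetochore motor, stood at 62.7, 67.6 and 78.6 CPM in DMSO and at 35.6, 47.2 and 34.7 CPM after the washout, and CDC20, the activator of the anaphase complex, at 277, 246 and 270 CPM and then at 167, 197 and 114 CPM. Of 28 DNA replication genes 2 were lower, CCNE1 and RRM2, and 1 higher, E2F1, shares under those of all genes, while 5 were lower and 2 higher without replicate 3 and 8 lower and none higher without replicate 2. E2F1, the factor that drives entry into S phase, stood at 60.3, 53.9 and 50.3 CPM in DMSO and at 86.6, 93.5 and 59.6 CPM after the washout. The calls of E2F1, RRM2 and CDC20 were each lost when any 1 DMSO library or long washout replicate 1 was left out, and that of E2F1 also without long washout replicate 2.

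Some inhibitors of the cell cycle were higher in the same libraries. Of 13 cyclins and CDK inhibitors 5 were higher and none lower, with and without replicate 3, against 15.9% of all genes higher, and 3 were higher without DMSO replicate 1 or 2. They were the inhibitors CDKN1B, CDKN2B, CDKN2C and CDKN2D and the cyclin CCND3. CDKN2B, the CDK4 inhibitor p15, stood at 7.12, 13.6 and 13.6 CPM in DMSO and at 45.2, 37.3 and 100 CPM after the washout. CDKN2C, the inhibitor p18, stood at 2.43, 2.00 and 2.78 CPM in DMSO and at 7.78, 6.69 and 6.52 CPM after it, above its mean of 4.28 CPM in DTPs and 3.25 CPM after the short washout. The log2 fold changes of CDKN2D, CDKN1B and CCND3 were 0.69, 0.53 and 0.75, and CDKN1A, the inhibitor p21, stood at 20.8, 22.7 and 27.8 CPM in DMSO and at 23.5, 14.1 and 28.4 CPM after the washout, with overlapping groups and no call (-0.10, adjusted p = 0.783, edgeR).

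Of 30 tested glycolysis and hypoxia genes 17 were lower and 4 higher, against 14.7% and 15.9% of all genes, 18 and 4 without replicate 3, and the median was -0.50. The number of lower genes was 10, 11 and 7 without DMSO replicate 1, 2 or 3 and 10 without long washout replicate 1. Hexokinase HK2 stood at 92.6, 96.8 and 132 CPM in DMSO and at 34.9, 37.2 and 20.9 CPM after the washout. The lactate exporter SLC16A3 stood at 95.3, 105 and 107 CPM and then at 43.9, 55.0 and 42.9 CPM. Enzymes of the chain from glucose to lactate were lower by less than 2-fold, such as TPI1 (-0.57), PGK1 (-0.53), ENO1 (-0.56) and LDHA (-0.49), and GAPDH was inside 1.5-fold (-0.22). The glucose transporters parted: SLC2A1 was lower (-0.52), and SLC2A3, named after its values were seen, rose from 69.4, 96.0 and 93.0 CPM to 366, 243 and 707 CPM. Of 32 genes of cholesterol and fatty acid synthesis 2 were higher and 1 lower, and 28 were undetermined. Without long washout replicate 2, 9 of these were lower, and without DMSO replicate 3 none was called in either direction. In this list DMSO replicate 1 had a mean level of 5.78 against 6.79 and 6.51 in replicates 2 and 3.

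The FOXO list holds the factors and genes that they are known to act on when PI3K and AKT signalling is low. Of its 24 members 12 were higher, among them the factors FOXO4 and FOXO6, and 2 lower, IRS1 and SOD2, with and without replicate 3, against 15.9% and 14.7% of all genes. Without DMSO replicate 1, 2 or 3, 6, 8 and 4 were higher and none lower. CITED2 stood at 51.9, 47.6 and 47.8 CPM in DMSO and at 149, 122 and 309 CPM after the washout. BCL6, a transcriptional repressor, stood at 32.4, 41.3 and 48.1 CPM and then at 95.2, 112 and 162 CPM, and FOXO6 at 4.63, 4.53 and 4.32 CPM and then at 9.95, 13.4 and 17.5 CPM. The factors FOXO1 (0.23) and FOXO3 (-0.25) were inside 1.5-fold. Of 20 genes of the BCL2 and IAP families 7 were higher and 2 lower, against the same shares of all genes, 7 and 3 without replicate 3, and 4 were higher and none lower without DMSO replicate 2 or 3. The higher ones were BIRC7, which encodes an inhibitor of apoptosis, and 6 that encode pro-apoptotic proteins: BMF, HRK, BBC3, BCL2L11, BAD and BID. BMF stood at 11.9, 11.2 and 5.996 CPM in DMSO and at 30.5, 26.8 and 68.7 CPM after the washout, and HRK at 5.00, 3.65 and 3.33 CPM and then at 13.1, 14.0 and 20.7 CPM. The 2 lower ones, BCL2L1 and MCL1, encode survival proteins.

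Aldehyde dehydrogenases, detoxifying enzymes often measured in drug-tolerant cells, were higher in 9 of 18 cases and lower in 2, with and without replicate 3, against 15.9% and 14.7% of all genes, and with a median of 0.74. Without DMSO replicate 1 or 3, 6 were higher and none lower. ALDH3A1 stood at 77.4, 83.9 and 62.0 CPM in DMSO and at 283, 171 and 283 CPM after the washout. ALDH1L1 stood at 15.7, 16.6 and 14.0 CPM and then at 28.7, 27.6 and 30.9 CPM, and ALDH7A1 at 58.2, 62.5 and 64.1 CPM and then at 113, 94.4 and 102 CPM. In the last 2 genes the 3 washout libraries lay close together. Of 31 NRF2 targets 9 were higher and 3 lower with all libraries, the lower share being under that of all genes, 14 and 4 without replicate 3, and 5, 4 and 5 were higher without DMSO replicate 2, DMSO replicate 3 or long washout replicate 1. AKR1C3, an aldo-keto reductase, was higher in replicates 1 and 2 (457 and 468 CPM) than in replicate 3 (354 CPM), with 216 to 247 CPM in DMSO and 258 CPM in DTPs.

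Among keratin, mucin and junction genes of the epithelium, changes went in both directions. Of 16 keratins 9 were higher and 1, KRT6B, lower, against 15.9% and 14.7% of all genes, 10 and 1 without replicate 3, and 5 were higher without DMSO replicate 1 or long washout replicate 1. KRT4, a keratin of moist stratified epithelium, stood at 0.31, 0.55 and 0.44 CPM in DMSO and at 14.9, 7.15 and 37.5 CPM after the washout, and KRT16 at 9.75, 11.4 and 10.1 CPM and then at 49.1, 28.3 and 85.9 CPM. Of 7 mucins and trefoil genes 4 were higher, against 15.9% of all genes, all membrane-bound mucins: MUC1, MUC4, MUC16 and MUC20. Without DMSO replicate 3, 2 were higher, and without long washout replicate 2 or 3 the 4 were joined by 1 lower member. MUC16, which encodes CA125, stood at 14.2, 33.8 and 25.4 CPM in DMSO and at 289, 134 and 466 CPM after the washout, and MUC1 at 1.92, 4.35 and 2.94 CPM and then at 25.9, 24.0 and 51.6 CPM. Of 30 junction genes 11 were higher and 3 lower, with and without replicate 3, against 15.9% and 14.7% of all genes, and 5 were higher and 1 lower without DMSO replicate 1 or 3. The tight junction gene CLDN1 stood at 46.0, 48.9 and 51.3 CPM and then at 148, 120 and 151 CPM. EPCAM, an adhesion molecule of epithelia, fell from 550, 493 and 556 CPM to 283, 332 and 284 CPM.

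Of 21 collagens 6 were higher and 4 lower, against 15.9% and 14.7% of all genes, 7 and 4 without replicate 3, and 4 and 2 without DMSO replicate 3. COL12A1 stood at 100.2, 90.8 and 89.5 CPM in DMSO and at 432, 366 and 348 CPM after the washout (log2 fold change 2.04 ± 0.11, adjusted p = 0.000411, edgeR), and the library labelled replicate 3 was the lowest of the 3 washout libraries. COL5A1 stood at 13.1, 11.0 and 13.6 CPM and then at 85.5, 41.4 and 115 CPM. COL6A1 fell from 737, 567 and 608 CPM to 180, 311 and 247 CPM, and COL13A1 from 29.4, 35.2 and 36.6 CPM to 2.07, 7.10 and 0.28 CPM. Of 21 integrins and laminins 4 were higher, a share near the 15.9% of all genes, and 6 lower, against 14.7% of all genes. The numbers were 4 and 7 without replicate 3 and none and 3 without DMSO replicate 3. The lower ones included ITGA6 (-1.61), ITGA2 (-1.30) and ITGA5 (-1.10), chains of the laminin, collagen and fibronectin receptors. Of 29 YAP and TEAD genes 12 were higher and 1, NT5E, lower, against 15.9% and 14.7% of all genes, 10 and 1 without replicate 3, and 7, 6 and 7 were higher without DMSO replicate 2, DMSO replicate 3 or long washout replicate 1. CCN2, a standard YAP target named after its values were seen, stood at 4.43, 2.31 and 1.62 CPM and then at 33.5, 8.69 and 18.2 CPM, while YAP1 (-0.12) and TEAD4 (-0.18) were inside 1.5-fold.

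Further lists held calls in both directions, to be read against 15.9% and 14.7% of all genes with all 6 libraries. Without DMSO replicate 3, where 770 of 14242 genes were higher and 594 lower, fewer members were called. The numbers were then 2 and 0 for NF-kB, 4 and 4 for WNT and Notch, 2 and 2 for ATF4, 2 and 2 for STAT3 and 2 and 0 for the modifying enzymes, higher and lower in turn. Without long washout replicate 3 these numbers were 6 and 3, 14 and 5, 6 and 6, 6 and 3, and 5 and 7. Of 17 NF-kB targets 7 were higher and 3 lower, with ICAM1, an adhesion molecule for leukocytes, at 73.5, 76.0 and 66.8 CPM in DMSO and 539, 396 and 568 CPM after the washout (2.81 ± 0.16, adjusted p = 0.000411, edgeR). Of 33 WNT and Notch genes 11 were higher and 5 lower, of 28 ATF4 targets 6 and 5, and of 14 genes of the STAT3 axis 4 and 3, with SOCS3, a feedback inhibitor of cytokine receptors, at 43.5, 37.0 and 43.0 CPM and then at 12.3, 16.9 and 8.22 CPM. Of 43 histone and DNA modifying enzymes 5 were higher and 4 lower, and 25 were inside 1.5-fold, with a median of 0.00. SMARCA2, a remodelling ATPase, rose from 37.0, 37.5 and 33.7 CPM to 57.7, 51.1 and 51.0 CPM, and KDM1A, a histone demethylase, fell from 156, 155 and 184 CPM to 114, 121 and 97.1 CPM. None of 5 APOBEC3 deaminases was called.

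Mitochondrially encoded genes, all subunits of the respiratory chain and its ATP synthase, had the largest share of lower genes among the lists with at least 12 tested members. Of 13 members 11 were lower and none higher, with and without replicate 3, against 14.7% of all genes lower, with a median of -0.50, and 8 and 6 were lower without DMSO replicate 2 or 3. MT-ND4 stood at 15467, 17256 and 18334 CPM in DMSO and at 10336, 10871 and 10003 CPM after the washout, and MT-ND2 at 4894, 4957 and 5332 CPM and then at 2994, 3078.5 and 2729.5 CPM. In both genes the 3 washout libraries lay close together and under every DMSO library. In DTPs MT-ND4 averaged 10209 CPM, and after 24 h of drug 16448 CPM.

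The labelled cell type was checked against markers. The epithelial markers EPCAM, CDH1, KRT7, KRT8, KRT18 and KRT19 were high in all 6 libraries, from 87.2 TPM (CDH1) upwards. NKX2-1, NAPSA and SFTPB, markers of the alveolar epithelium, were at most at 1.16, 3.37 and 0.19 TPM in any of the 6 libraries. Of 16 tested members of the wider lung lineage list 6 were higher (CAV1, FOXJ1, NAPSA, SCGB3A2, SFTPA2 and SFTPD) and 1 lower, against 15.9% and 14.7% of all genes. The higher number was 4 without long washout replicate 3, 1 without DMSO replicate 1 or 2 or long washout replicate 1, and none without DMSO replicate 3. SFTPD, surfactant protein D, averaged 0.484 TPM in DMSO and 2.41 TPM after the washout. FOXA1, a pioneer factor of endoderm and the lower member, stood at 52.3, 49.995 and 58.5 CPM in DMSO and at 28.5, 29.4 and 20.9 CPM after the washout. PTPRC, CD3E, LUM and HBB stayed at or under 0.165 TPM in each library. Other markers of such cells did not stay that low. COL1A1, a fibroblast marker, stood at 5.9 to 8.2 TPM in DMSO and at 8.9 to 12.2 TPM after the washout. CDH5, an endothelial marker, stood at 3.1 to 5.5 TPM and then at 5.2 to 10.6 TPM. CD163, DCN and PDGFRB reached at most 0.87, 0.38 and 0.39 TPM. PECAM1 (-2.40) and CD68 (-0.82), listed as markers of endothelium and macrophages, were lower, and VWF, at 0.12 to 0.39 TPM after the washout, was higher, though not without replicate 3. Of the 16 markers on the list of other cell types, 5 passed the filter on low values, and their part in the results was not tested. Genes of the 3 other cell lines of the series that PC9 lacks had medians of 0% to 0.0647% of the level in that line in the PC9 libraries, with single genes up to 4.22%.

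Set beside the other PC9 arms, which share the DMSO libraries, the numbers of genes called against DMSO were 9636 of 14076 after 24 h of drug, 10253 of 14382 in DTPs, 9226 of 14198 after the short washout and 4278 of 13980 after the long washout. Against DTPs, 1707 genes were higher and 789 lower after the long washout. Against the short washout a single gene of 14278 passed, GABBR2, although 2818 had an unadjusted p under 0.05. For no other gene is a difference between 24 h and 7 days of washout shown, and the spread of the long washout libraries given above stands beside that count. By the measure used there, long washout replicates 1 and 2 lay at 79.8 to 159 from the short washout libraries, and replicate 3 at 21.0 to 35.7. No fit of the long washout against DTPs or the short washout without replicate 3 is given here, so the count does not show that the 2 washout arms were alike. The interferon list was higher than DMSO in 32 of 38 members tested after 24 h of drug, 39 of 42 in DTPs and 41 of 42 after the short washout, where 34.4%, 35.4% and 31.8% of all genes were higher. ERK targets were lower in 18, 16 and 17 of 21 members, and mitosis genes in 23, 24 and 24 of 24, where 34.1%, 35.9% and 33.2% of all genes were lower.

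The same comparison in the 3 other lines shares no library with PC9, but its time without drug differs: 4 days in HCC827, 10 days in HCC2935 and 3 days in H1975, so line and time cannot be told apart. Among genes tested in PC9 and the other line, 42.3% of the genes higher in PC9 were also higher in HCC827 (35.8% of those of HCC827), 40.8% in HCC2935 (32.4%) and 52.5% in H1975 (31.2%), where 18.3%, 20% and 26% of all genes were higher in those lines. Of the lower genes of PC9, 43.3%, 35.4% and 57.7% were lower in these lines, against 20.9%, 19.3% and 29.8% of all genes. Of 12589 genes tested in all 4 lines, 318 were higher and 310 lower in each. Of 1933 genes called higher in PC9 498 were called higher in no other line, and of 1938 lower genes 467 were called lower in none. A missing call does not show that a gene was unchanged in those lines. The same share over all 12589 genes is not given here, so these genes are not shown to be particular to PC9.

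The change in PC9 differed from the mean change of the 3 other lines for 3460 of 16017 genes (21.6%, edgeR, adjusted p under 0.05), 2006 of them towards higher in PC9 (12.5%) and 1454 towards lower (9.08%). The interferon list was such a case: 32 of its 42 members differed, all towards higher in PC9. The median log2 fold change of the list was 1.82 in PC9, 1.12 in HCC827, 0.42 in HCC2935 and -0.46 in H1975. Without long washout replicate 3 the PC9 median was 1.07, near that of HCC827. The number of genes of any kind that differed in this test was then 3003, and the list members among them are not given here. In HCC827 30 of 42 members were higher, where 19.7% of all genes were, and in HCC2935 12 of 41 were higher and 2 lower, where 21% and 18.9% of all genes were. In H1975 8 of 42 were higher and 21 lower, where 26.8% and 28.2% of all genes were, so the higher share was under that of all genes. IFI44, for example, changed by 6.26 ± 1.14 in PC9, 1.16 ± 0.22 in HCC827, 0.20 ± 0.21 in HCC2935 and -2.43 ± 0.30 in H1975 on the log2 scale. Mitosis genes differed in 21 of 24 cases, again towards higher in PC9: all 24 were lower in HCC827 and in H1975, where 19.9% and 28.2% of all genes were lower, 5 were lower in HCC2935 and 8 in PC9. Collagens differed the other way in 10 of 21 cases, with 16 of 20 higher in HCC827, 16 of 19 in HCC2935, 11 of 20 in H1975 and 6 of 21 in PC9. Mitochondrially encoded genes differed towards lower in PC9 in 12 of 13 cases, with 12 higher in HCC827, 2 higher and 4 lower in HCC2935 and 3 higher and 3 lower in H1975.

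HBEGF had opposite signs between the lines, at -2.43 in PC9 and at 2.89, 1.08 and 2.34 in HCC827, HCC2935 and H1975, each past the test. IGFN1, a protein with immunoglobulin domains, was at -3.22 in PC9, at 7.14 in HCC827 and at 1.91 in H1975, and did not pass in HCC2935 (-1.004). HMGA2 was lower in PC9 (-4.77), HCC2935 (-2.32) and H1975 (-3.28), and was at -0.41 in HCC827. SERPING1 was among the genes that were high in all 4 lines, at 5.59, 4.18, 3.42 and 4.46, and SPARC, a matrix protein, was at 5.58, 6.27, 4.46 and 1.53.

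**Figure D4:**
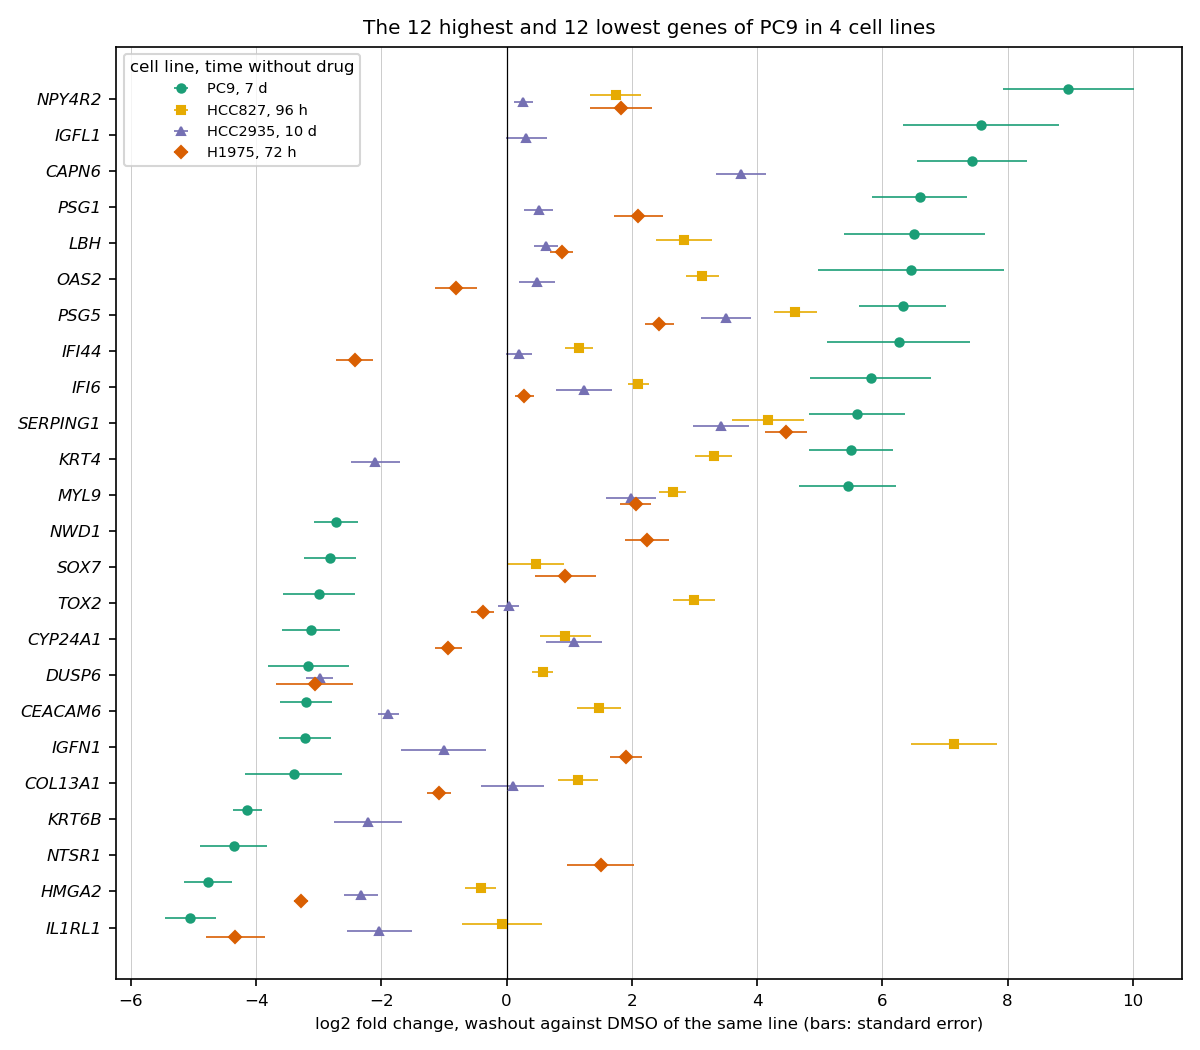
Log2 fold change of washout against DMSO of the same line, with its standard error, for the 12 highest and 12 lowest genes of PC9, in PC9 (7 days) and the 3 other lines (96 h, 10 days and 72 h). A missing point is a gene that was not tested in that line, SERPING1, LBH, PSG5 and MYL9 lie above 0 in each line that has a value, and IGFN1 lies at -3.22 in PC9 and 7.14 in HCC827.

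The called genes were not spread evenly over the chromosomes, a pattern that was looked for after the calls were known and carries no test. Of 13725 tested genes that GENCODE 29 places on chromosomes 1 to 22 and X, 15.8% were higher and 14.7% lower. On chromosome 2, 257 of 943 genes (27.3%) were lower and 125 (13.3%) higher, and no other chromosome had more than 17.6% lower genes. On chromosome 19, 198 of 1060 genes (18.7%) were higher and 70 (6.60%) lower. The median difference from the DMSO mean over 645 genes of chromosome 2, after each library was set to its own median, was -0.16, -0.16 and -0.17 on the log2 scale in long washout replicates 1, 2 and 3, so replicate 2 was as low as the others here, -0.14 to -0.18 in DTPs and -0.07 to -0.12 after 24 h of drug. In the first 20 Mb of the chromosome it was -0.39, -0.42 and -0.66, with 38 genes, and in the next 3 windows of 20 Mb it lay between -0.18 and -0.31 in each long washout library. The first 20 Mb were already at -0.34 to -0.37 after 24 h of drug, at -0.68 to -0.75 in DTPs and at -0.54 to -0.56 after the short washout. Not every window was low: those that begin at 80000001, 140000001 and 240000001, with 55, 16 and 18 genes, lay at 0.04 to 0.18 in each long washout library, and the window that begins at 200000001 lay at -0.0018 to 0.10. Runs of 5 or more neighbours called in the same direction numbered 14, the longest with 10 genes each on chromosome 19 (the PSG cluster) and on chromosome 10 from 71212570 to 72235860, where UNC5B, SLC29A3, CDH23, C10orf105, VSIR, PSAP, CHST3, SPOCK2, ASCC1 and ANAPC16 were all higher. C10orf105 lies inside CDH23, and reads of such nested genes may be shared. On chromosome 2, 7 neighbours from 9403475 to 10002277, ITGB1BP1 to GRHL1, were all lower by between 0.40 and 0.996 on the log2 scale.

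**Figure D5:**
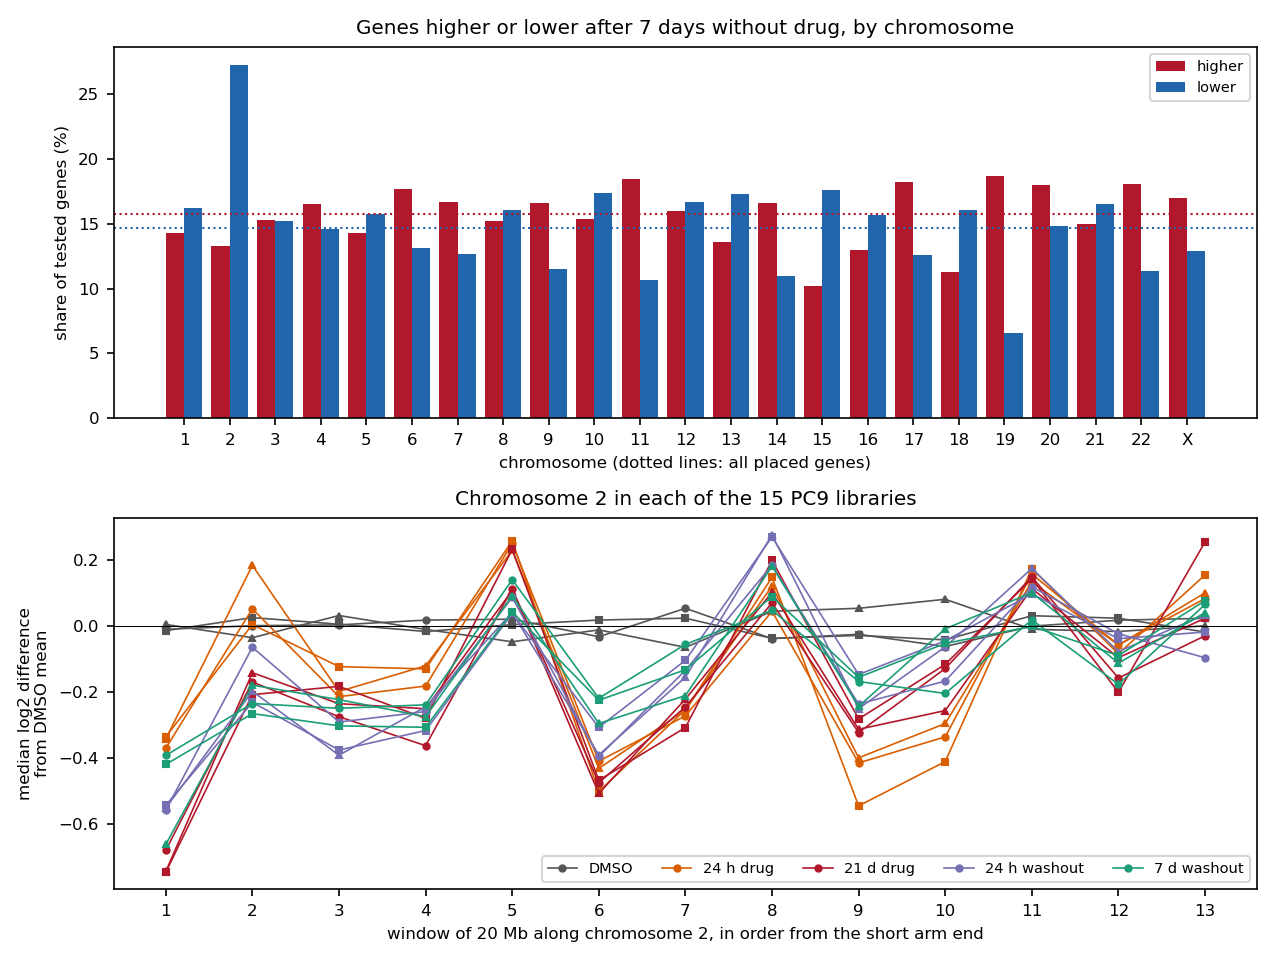
Upper panel: share of tested genes (in %) that were higher or lower after 7 days without drug against DMSO in PC9, by chromosome, with dotted lines for all placed genes. Lower panel: median log2 difference from the DMSO mean in windows of 20 Mb along chromosome 2, 1 line per PC9 library, where the long washout libraries lie between -0.39 and -0.66 in the first window.

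Among the 134 genes named by rule, 91 overlap another gene in GENCODE 29, 71 of them a gene on the opposite strand, and 16 have pseudogenes named after them. Where reads from such partners were counted was not tested.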

How the data were processed

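RNA was measured by poly(A) RNA-seq in biological triplicate. The authors deposited estimated counts per gene and log2 TPM values; their processing notes list HISAT2 2.1.0, Salmon 0.8.2 and hg38, and the role of each and the use of strand are not given in the sources used here. Here the estimated counts were rounded and fitted with edgeR 4.0.16 (R 4.3.3; TMM, filterByExpr, quasi-likelihood F-test) on the 6 libraries, with Benjamini-Hochberg adjustment over all genes tested and calls at an adjusted p under 0.05. The deposited log2 TPM values entered a limma 3.58.1 alternative, and DESeq2 1.42.0 was another. A gene counted as inside 1.5-fold if its whole 95% interval lay there. CPM are TMM-normalized. The test of PC9 against the other lines used 24 libraries in 1 model. The scripts were tested on simulated counts.

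The libraries and gene lists were chosen with earlier results of these data known. Named genes were the 12 highest and 12 lowest called genes that averaged 5 CPM or more, up to 3 called genes of each list with the smallest adjusted p, and EGFR, DUSP6, MKI67 and CDKN1A. Further list members, neighbours in runs and genes compared between lines were named after their values were seen. Genes were placed with GENCODE 29, and promoters came from RefSeq (GRCh38.p14). Counting intervals cover counting error only. The table writes hyphens in gene symbols as dots, and symbols were matched accordingly. A few list members were not analysed here.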

Additional observations from a re-analysis of the deposited data

Results flagged for a closer look

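The change from DMSO to washout differed between PC9 and the mean of the 3 other lines for 3460 genes (edgeR's quasi-likelihood test, adjusted p under 0.05), and 18 of the 24 highest and lowest genes of PC9 were among them. The time without drug differs by line, so line and time cannot be told apart.

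Towards higher in PC9, the log2 difference of the changes was 7.66 for NPY4R2, 4.72 for PSG1, 5.05 for LBH, 5.52 for OAS2, 2.80 for PSG5, 6.601 for IFI44, 4.61 for IFI6, 5.99 for KRT4 and 3.21 for MYL9. Towards lower, it was -3.63 for NWD1, -3.86 for TOX2, -3.47 for CYP24A1, -2.65 for CEACAM6, -5.89 for IGFN1, -3.43 for COL13A1, -6.37 for NTSR1, -2.74 for HMGA2 and -2.89 for IL1RL1. TOX2, a transcription factor gene, rose in HCC827 by 3.00 on the log2 scale and fell in PC9 by 3.00. LBH, PSG5 and MYL9 rose in all 4 lines, so their changes differed in size and not in direction.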

How the results depend on the processing

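The number of genes called was 4062 to 5215 with RLE size factors, library size alone, no filter, a minimum of 10 counts, DESeq2 or limma. It was 6672 (3483 higher, 3189 lower) in a fit of all 15 PC9 libraries, and 1310 (740 higher, 570 lower, 766 with a 2-fold change) at a threshold of 0.01. Limma on log2 TPM gave 1319 lower genes. Leaving out 1 library gave 1364 to 5316 called, 770 to 2722 higher, 594 to 2594 lower and 775 to 1968 with a 2-fold change, the lowest without DMSO replicate 3. CDKN1A, not called in any setting, was at -0.33 without long washout replicate 3 and changed sign to 0.0107 with library size alone, 0.0026 with limma, 0.02 without DMSO replicate 3 and 0.14 without long washout replicate 2 (log2). With the replicate number as a block 2920 genes were called, 2871 of them shared; same-numbered libraries deviated together with r of 0.12, -0.23 and -0.07, so the numbers were not taken as pairs. Between the lines, the alternatives gave 2677 to 4178 genes. The cause of these differences was not tested. The main limits are 3 libraries an arm, 1 of which stood apart, and culture time that moves with drug history.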

Other observations

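A small set of genes lay outside the range of every other PC9 arm after the long washout, in all 3 libraries including the one labelled replicate 3. Of 12857 genes that averaged 1 CPM or more, 47 were higher in each long washout library than in any of the 12 other PC9 libraries, and 50 were lower. These genes were chosen by their values in these libraries, so the counts are a description. By the test against DMSO, 20 of the higher and 25 of the lower genes were called in that direction, 15 and 17 were inside 1.5-fold, and 12 and 8 were undetermined. Over all genes tested, 15.9% were called higher and 14.7% lower. The choice put all 3 libraries beyond every DMSO library, which favours such calls, so they add no support. The genes named here are called ones.

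Among the higher ones, CDKN2C, which encodes the CDK inhibitor p18, stood at 6.52 to 7.78 CPM against 2.00 to 4.69 CPM in the other libraries. STMN1, the microtubule regulator stathmin, stood at 145.5 to 177 CPM against 91.0 to 115 CPM, and MXD3, a partner of MAX, at 17.9 to 19.1 CPM against 7.15 to 16.0 CPM. CDKN2D, PIMREG, NMU and DNMT3B were others. Among the lower ones, MLPH, the melanosome transport adaptor melanophilin, stood at 51.9 to 67.1 CPM against 71.8 to 226 CPM, and ADAM8, a membrane protease, at 24.8 to 36.2 CPM against 37.5 to 71.0 CPM.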
